A study of Mus musculus with 32 samples.

Results

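High *Fcer1g* marked 71 of the 246 distinct hematopoietic cells collected from mouse embryos between E9.5 and E11.5, out of 1902 distinct cells in all. A cell was a member if the authors had placed it in their hematopoietic group and its *Fcer1g* level, log2(TPM/10 + 1), was 3 or more. TPM is the number of distinct transcripts (unique molecular identifiers, UMIs) of a gene per 1000000 in that cell, and a level of 1 stands for 10 TPM. The members nearest to the threshold had *Fcer1g* levels of 3.30, 3.40 and 3.71, and the nearest hematopoietic cells outside it had 2.89, 2.89 and 2.74. All embryos were C57BL/6J mice, and the labels name no treatment and no genetic change. Single cells were picked by mouth pipette from dissociated skin, liver, lung, intestine, heart, somite and the 2 brain regions forebrain and hindbrain. The 7 embryos were aged E9.5 (3 embryos), E10.5 (2 embryos) and E11.5 (2 embryos). E9.5 embryo 2 is labelled female and all other libraries male, and the labels of E9.5 embryos 1 and 2 name another HiSeq model than the rest. Their protocol text also speaks of gonadal cells, and the study's methods give 1 model for all libraries, so that this difference is uncertain. The cells of both embryos of E10.5, and of both of E11.5, shared the library of each organ, and their cell names tell the embryos apart. The lung and liver cells of E9.5 embryo 3 shared a library, as did its skin, intestine and somite cells.

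Blood forms in the early embryo in overlapping waves. Primitive macrophages arise in the yolk sac, enter the tissues and persist in some of them, as microglia do in the brain. Erythro-myeloid progenitors (EMPs), which follow, seed the fetal liver and give rise there to erythroid, megakaryocytic, granulocytic, mast and further macrophage cells. *Fcer1g* encodes the gamma chain that carries the signal of Fc receptors through its immunoreceptor tyrosine-based activation motif (ITAM). Macrophages, granulocyte precursors, mast cells and platelets all use it.

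The liver gave 42 of the 71 cells, from 178 hematopoietic cells, and the other organs gave 29 from 68. All 9 hematopoietic cells of the skin were members. In the other organs the members were 7 of 16 cells in the forebrain, 5 of 17 in the hindbrain, 5 of 16 in the heart, 2 of 7 in the lung, 1 of 2 in the somite and 0 of 1 in the intestine. By embryo, E10.5 embryo 1 gave 24 members, E11.5 embryo 2 gave 15, E10.5 embryo 2 gave 10, E11.5 embryo 1 and E9.5 embryo 3 gave 9 each, E9.5 embryo 2 gave 4 and E9.5 embryo 1 gave 0 of 3. The members held 24561 to 2524348 UMIs (median 410314), and the other hematopoietic cells had a median of 452025. The 95 cell numbers used in the series each recur in more than 1 of the 32 libraries, and 16 libraries held members.

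The label was checked first, because the members were named as myeloid progenitors and primitive macrophages. *Coro1a*, an actin regulator of leukocytes, reached a level of 1 in all 71 cells. *Tyrobp*, the other ITAM adaptor of myeloid cells, did so in 57 cells. *Csf1r*, the receptor for the macrophage growth factor, did so in 38, and *C1qb*, a chain of complement C1q, in 31. The macrophage part of the label therefore covered some of the members. *Csf1r*, *Mpo* and *Itga2b* together accounted for all of them. The cells were divided by these genes after their values had been seen, so that the division is a description. *Itga2b* was not particular to the members, reaching 1 in 39 of the 71 and in 81 of the 175 other hematopoietic cells. *Mpo* reached 1 in 27 members and 21 of the others, and *Csf1r* in 38 and 4. *Mpo* encodes myeloperoxidase of granulocyte precursors. *Itga2b* encodes the platelet integrin CD41, which is also carried by early blood progenitors.

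*Csf1r* was at 1 or more in 38 cells, 14 of the liver and 24 of other organs. *Mpo* was at 1 or more without *Csf1r* in 17 cells, 16 of the liver and 1 of the lung. The last 16 cells, 12 of the liver and 4 of other organs, carried *Itga2b* alone. These shares were 33.3% of the liver members with *Csf1r* (95% Clopper-Pearson interval 19.6 to 49.5) and 82.8% of the non-liver members (64.2 to 94.2), intervals that cover counting error only. *Csf1r* and *Itga2b* were close to exclusive across the 71 cells, with 7 cells above 1 for both and a Pearson r of -0.80. *Mpo* overlapped with both, being found with *Csf1r* in 10 cells and with *Itga2b* in 19. With a division level of 3 in place of 1, the same rule gave 37, 15 and 16 cells and left 3 in none. After every cell had been thinned to 20000 UMIs it gave 39, 17 and 13 cells and left 2 in none.

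**Figure D1:**
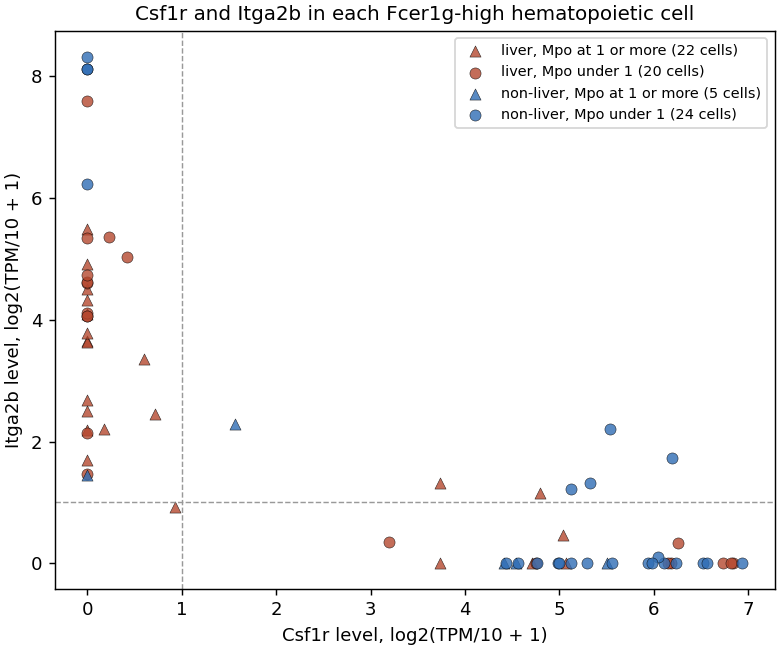
Levels of Csf1r (x axis) and Itga2b (y axis), both log2(TPM/10 + 1), in each of the 71 cells, coloured by liver or non-liver, with triangles for cells with Mpo at 1 or more and dashed lines at 1. The points lie along the 2 axes, and 7 cells are above 1 for both genes.

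The promoters of *Fcer1g*, *Mpo* and *Itga2b* are shown because these genes chose or divided the cells. *C1qb*, which reached 1 in *Csf1r* cells only, and *Pf4*, the platelet chemokine, which was high in *Itga2b* cells and in part of the *Csf1r* cells, are set beside them. Each run holds 250 bases before and 50 bases after the RefSeq start of the gene on GRCm38.p6, 5′ to 3′ on the gene's strand. Capitals mark the letters GAGGAA, a core that PU.1 (*Spi1*) can bind, or AGATAA, a core that GATA factors can bind, each searched on both strands (TTCCTC and TTATCT on the other); the 2 motifs do not overlap in these runs.

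*Fcer1g*, chr1:171234300-171234599, minus strand: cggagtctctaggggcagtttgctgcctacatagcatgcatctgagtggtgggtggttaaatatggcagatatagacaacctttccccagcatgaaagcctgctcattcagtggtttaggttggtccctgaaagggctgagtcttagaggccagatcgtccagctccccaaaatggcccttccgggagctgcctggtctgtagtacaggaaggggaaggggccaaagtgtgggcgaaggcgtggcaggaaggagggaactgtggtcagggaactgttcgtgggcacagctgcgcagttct
*C1qb*, chr4:136886151-136886450, minus strand: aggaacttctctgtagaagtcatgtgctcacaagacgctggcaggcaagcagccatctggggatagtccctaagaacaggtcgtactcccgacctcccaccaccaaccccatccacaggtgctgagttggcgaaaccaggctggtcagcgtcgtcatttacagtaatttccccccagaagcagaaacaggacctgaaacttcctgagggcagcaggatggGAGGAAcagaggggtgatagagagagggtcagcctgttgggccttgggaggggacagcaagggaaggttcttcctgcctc
*Mpo*, chr11:87793534-87793833, plus strand: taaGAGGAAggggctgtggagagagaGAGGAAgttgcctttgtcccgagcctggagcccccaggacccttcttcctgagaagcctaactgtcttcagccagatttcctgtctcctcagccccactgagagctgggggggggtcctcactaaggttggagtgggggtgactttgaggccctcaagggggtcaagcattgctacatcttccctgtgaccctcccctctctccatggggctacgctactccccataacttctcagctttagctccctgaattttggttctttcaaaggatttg
*Itga2b*, chr11:102469834-102470133, minus strand: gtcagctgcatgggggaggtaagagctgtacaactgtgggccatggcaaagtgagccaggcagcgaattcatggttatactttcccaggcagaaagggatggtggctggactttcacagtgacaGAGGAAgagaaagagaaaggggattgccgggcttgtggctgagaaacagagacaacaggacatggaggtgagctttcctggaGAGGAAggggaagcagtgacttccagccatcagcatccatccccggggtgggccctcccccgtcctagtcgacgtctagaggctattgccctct
*Pf4*, chr5:90772185-90772484, plus strand: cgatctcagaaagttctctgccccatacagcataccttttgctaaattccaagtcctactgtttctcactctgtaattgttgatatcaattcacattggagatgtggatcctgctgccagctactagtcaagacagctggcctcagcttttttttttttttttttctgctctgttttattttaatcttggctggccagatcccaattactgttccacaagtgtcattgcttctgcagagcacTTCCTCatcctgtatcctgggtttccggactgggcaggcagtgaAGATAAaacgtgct

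The PU.1 core occurred once in the *C1qb* run, in 2 places in each of the *Mpo* and *Itga2b* runs, once in the *Pf4* run and not in the *Fcer1g* run. The GATA core occurred once, in the *Pf4* run. Of 32851 RefSeq promoters of the same length, 28.3% held the PU.1 core and 11.2% the GATA core. These are matches of letters and not binding sites.

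The 38 *Csf1r* cells carried the macrophage genes. Their levels were *Fcer1g* 5.40 to 9.31 (median 7.65) and *Tyrobp* 6.03 to 9.13 (median 7.79) (*Fcer1g* was fixed at 3 or more by the choice of members). Of the 24 macrophage markers, 17 reached 1 in 50% or more of these cells. *Cx3cr1*, the fractalkine receptor, reached 1 in 36 of 38 cells, *Cd68*, a lysosomal glycoprotein of phagocytes, in 35, *Lgmn*, a lysosomal endopeptidase, in 34, *Adgre1* (F4/80) in 32, *C1qb* in 31 and *Aif1* in 31. The transcription factors *Spi1* (PU.1) and *Irf8* had medians of 5.63 and 4.35 and were at 1 or more in 37 and 35 cells. *Gata1* and *Gp9* reached 1 in 2 and 6 of the 38 cells.

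*C1qb* divided the *Csf1r* cells further. In 31 cells it was at 1 or more, from 1.17 to 9.35, and in 7 it was under 1. The 7 cells without it came from the liver in 6 cases and from the heart in 1, and *Mrc1*, *Aif1* and *Timd4* were below 1 in all 7. Among the 31 cells with *C1qb*, *Aif1* reached 1 in 31, *Mrc1* in 22 and *Timd4* in only 8. *Mpo* was at 1 or more in 5 of these 7 cells (median 5.62) against 5 of the 31 with *C1qb* (median 0), and *Cd34*, a progenitor surface protein, in 6 of 7 against 17 of 31. *Irf8* was at 1 or more in 5 of the 7 cells (median 4.65) and in 30 of the 31 others (median 4.34). *Cx3cr1* was at 1 or more in 5 of the 7 cells (median 1.86) and in all 31 of the others (median 4.41). Both *Csf1r* cells of the E9.5 liver belonged to the 7 without *C1qb*.

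The 17 *Mpo* cells carried progenitor and granule genes. *Mpo* itself ranged from 2.01 to 10.05 (median 4.69), and *Prtn3*, proteinase 3 of the azurophil granule, reached 1 in 16 of 17. *Tyrobp* reached 1 in 14 of 17 cells (median 3.66), and *C1qb* in 0. Among progenitor genes *Myb* reached 1 in 15 of 17, *Kit* in 12, *Muc13* in 15 and *Adgrg1* in 16. *Gata2* reached 1 in 15 and *Gata1* in 14 cells, and *Cpa3*, carboxypeptidase A3 of mast cells and basophils, in 10 of 17, against 0 of the 38 *Csf1r* and 0 of the 16 *Itga2b* cells. *Elane* and *Ms4a3*, markers of committed granulocyte and monocyte progenitors, were at 1 or more in 2 and 6 cells. Of the 14 EMP and stem progenitor genes, 10 reached 1 in 50% or more of the *Mpo* cells, and of the 10 neutrophil granule genes 0 did. Of the 20 megakaryocyte markers 10 did, and *Itga2b* itself was at 1 or more in 16 of the 17, so that the *Mpo* and *Itga2b* kinds shared genes.

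The 16 *Itga2b* cells carried platelet genes and few macrophage genes. *Itga2b* and *Adgrg1*, which the study took as marks of its myeloid progenitors, reached 1 in all 16. *Tyrobp* reached 1 in 5 of them (median 0.50), *Csf1r*, *C1qb* and *Cx3cr1* in 0, and 1 of the 24 macrophage markers reached 1 in 50% or more of them. Of the 20 megakaryocyte markers, 17 reached 1 in 50% or more of these cells. *Gp1bb* and *Gp9*, subunits of the platelet receptor for von Willebrand factor, had medians of 5.85 and 5.40 and were at 1 or more in 16 and 14 cells. *Pf4* had a median of 8.01 and a highest value of 12.80, and *Itgb3*, the partner chain of *Itga2b*, a median of 4.19. *Vwf* reached 1 in 8 cells and *Ppbp*, another platelet granule chemokine, in 6. They are called *Itga2b* cells here, and *Fcer1g* in them ranged from 3.30 to 7.88 (median 5.52).

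**Figure D2:**
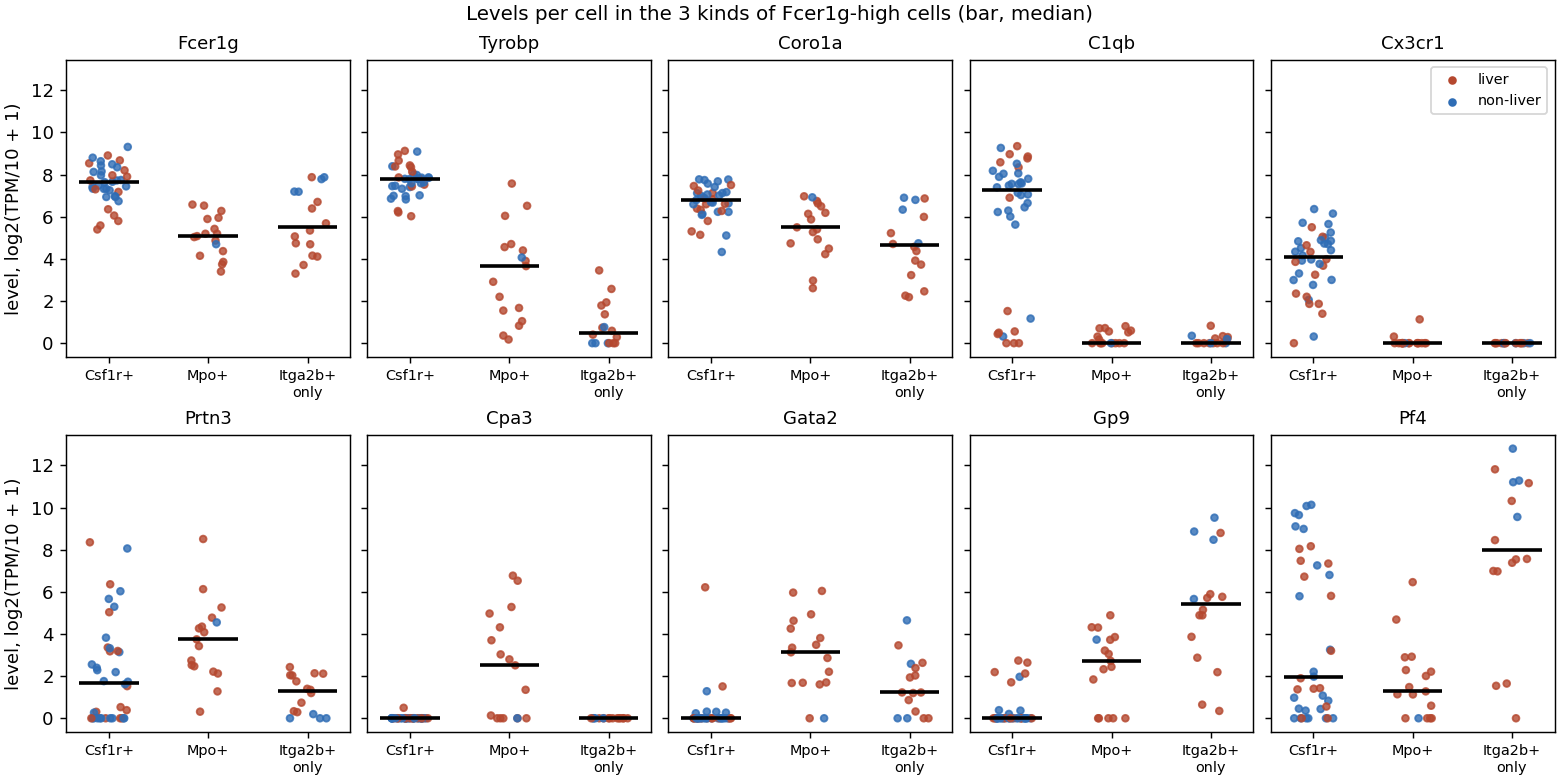
Level per cell, log2(TPM/10 + 1), of 10 genes in the 38 Csf1r cells, the 17 Mpo cells and the 16 Itga2b cells, with the median as a bar and liver and non-liver cells in 2 colours. Fcer1g and Coro1a are high in all 3 kinds, Tyrobp has medians of 7.79, 3.66 and 0.50, C1qb and Cx3cr1 reach 1 only in Csf1r cells apart from Cx3cr1 in 1 Mpo cell, and Gp9 has its highest values in Itga2b cells.

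Some genes crossed the kinds. *Pf4* was at 1 or more in 24 of the 38 *Csf1r* cells and in 15 of the 16 *Itga2b* cells, so that it did not separate them. *Runx1*, a master factor of blood formation, reached 1 in 31 of 38, 15 of 17 and 15 of 16 cells of the 3 kinds. *Plek*, a protein kinase C substrate of platelets and leukocytes, reached 1 in 33, 17 and 16. *Car2*, carbonic anhydrase of erythroid and progenitor cells, had medians of 0.85 in *Csf1r* cells, 5.71 in *Mpo* cells and 5.11 in *Itga2b* cells. *Klf1*, the erythroid factor, reached 1 in 5, 14 and 7 cells, with medians of 0.17, 2.20 and 0.82, all below the 5.69 of the other hematopoietic cells.

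The kinds were unevenly spread over the embryos. *Csf1r* cells made up 3 of 15 liver members and 8 of 9 non-liver members in E10.5 embryo 1, 3 of 5 and 5 of 5 in E10.5 embryo 2, 1 of 6 and 2 of 3 in E11.5 embryo 1, and 5 of 9 and 5 of 6 in E11.5 embryo 2. Their share was thus lower in the liver in each of the 4 embryos with 3 or more members in both. In E9.5 embryo 3 they were 2 of 7 in the liver and 2 of 2 elsewhere, and in E9.5 embryo 2 they were 2 of 4 outside the liver. *Mpo* cells made up 5 of 6 liver members of E11.5 embryo 1, against 1 of 5 in E10.5 embryo 2. The division was made on these values, and no test was run on it.

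**Figure D3:**
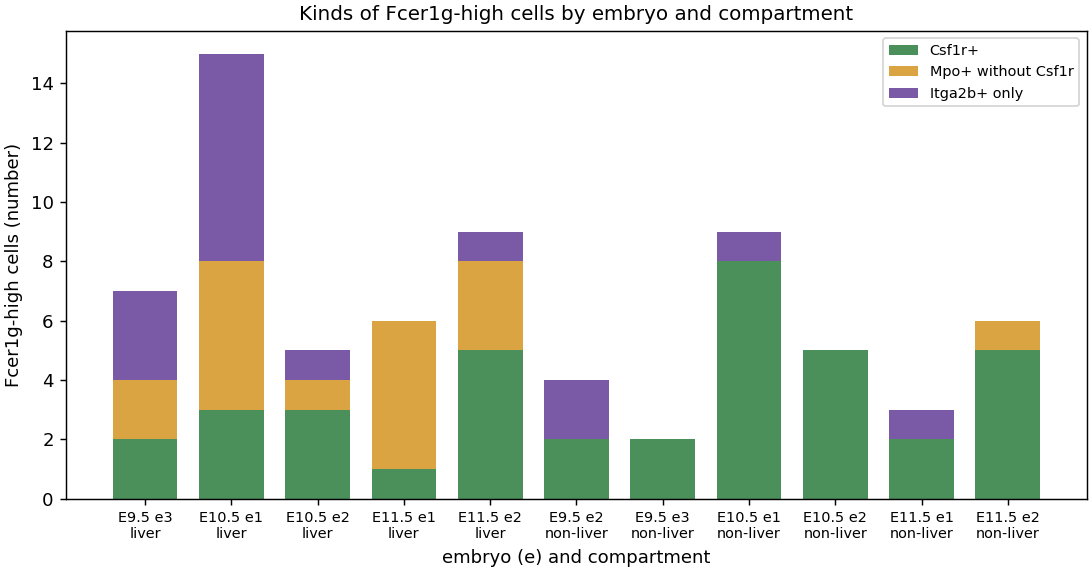
Number of Fcer1g-high cells (y axis) in each embryo and compartment (x axis), stacked by kind. Mpo cells are found in every liver bar and in 1 non-liver bar, and the tallest bar is the liver of E10.5 embryo 1 with 15 cells.

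Against the other 175 hematopoietic cells, the members stood apart in leukocyte genes. These differences describe the cells that the rule picked and were not tested. Over 6 embryos, the mean level of *Fcer1g* was 6.65 ± 0.60 (SD, n = 6) in members and 0.75 ± 0.33 in the others, and the 5 next largest differences were those of *Coro1a* (6.02 against 0.92), *Tmsb4x* (10.20 against 5.63), *Tyrobp* (4.93 against 0.57), *Laptm5* (5.11 against 1.15) and *Gmfg* (5.18 against 1.27). *Tmsb4x* and *Gmfg* encode actin regulators and *Laptm5* a lysosomal membrane protein of blood cells. *Alox5ap*, which activates the lipoxygenase that makes leukotrienes, reached 1 in 65 of 71 members and 5 of 175 others, and *Lyz2*, lysozyme of myeloid cells, in 56 and 8. *Ccl2*, a monocyte attractant, and *C3ar1* and *C5ar1*, the receptors of complement fragments, reached 1 in 17, 36 and 20 members and in 0 others. In the other direction *Blvrb*, an enzyme of heme breakdown abundant in red cells, had means of 3.07 in members and 6.76 in the others, and *Alas2*, the first enzyme of erythroid heme synthesis, 0.36 and 3.46.

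A low level of some of these genes was also read in cells of other types. *Fcer1g* reached 1 in 16.1% of epithelial, 8.29% of mesoderm-derived and 6.54% of neuronal cells, and *Csf1r* in 4.93%, 3.34% and 2.62%, with median depths of 301230, 309610 and 252310 UMIs. *Coro1a* reached 1 in 46.3% of neuronal cells. *Hba-x*, an embryonic globin, was at 1 or more in 90.1% of the members, 49.7% of epithelial, 64.7% of mesoderm-derived and 81.4% of neuronal cells. The median *Fcer1g* level was 0 in the epithelial, mesoderm-derived and neuronal groups, against 6.94 in the members.

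The liver and the other organs were compared to see how these cells differ where definitive blood formation has begun. The value was the mean level over the members of an embryo in the liver, or over those in all its other organs, where at least 3 cells were available. This gave 5 liver means and 5 non-liver means. They come from E9.5 embryo 3 (liver) or E9.5 embryo 2 (non-liver), E10.5 embryos 1 and 2 and E11.5 embryos 1 and 2, and values are given in that order below. Both liver means of E10.5 come from the same library, as do both of E11.5, and the fit took the means as independent. Liver and non-liver cells were in different libraries, so that organ and library cannot be told apart. Means per embryo depend on the mix of kinds as well as on the level in each kind, and fewer cells of a kind and less RNA per cell cannot be told apart in them. The test was limma with Benjamini-Hochberg adjustment over 11231 genes, and calls needed an adjusted p below 0.05 and a difference of 1 or more.

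Of 11231 genes, 43 were higher and 124 lower in the liver, 0.383% and 1.1% of those tested (1.49% together), and 1805 had an unadjusted p under 0.05. Macrophage, lysosome, microglia and complement lists held 27 of the 124 lower genes, and 97 were on none of these. Of the 23 macrophage markers tested, 12 were lower, 0 were higher and 11 did not pass, with a median difference of -2.20 against -0.011 over all genes. Of the 23 lysosome genes 9 were lower (median -1.42), of the 9 microglia markers 5 (median -1.30), and of the 11 complement genes 4 (median -1.40), with 0 higher in each. *Csf1r* was among the 12, and the share of *Csf1r* cells was itself lower in the liver, as given above.

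Among the genes lower in the liver in all 4 embryos with both, *C1qb* had the largest difference. Its embryo means were 0, 0.91, 3.32, 0.29 and 4.11 in the liver and 3.42, 4.84, 7.27, 5.72 and 6.50 outside it. The ranges overlapped. The difference was -3.82 ± 0.69 (SE, n = 5 and 5; limma adjusted p 0.00638). *C1qc*, the neighbouring chain of C1q, differed by -3.04 ± 0.63 (adjusted p 0.0144).

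*Cx3cr1* had liver means of 0.51, 0.74, 2.03, 0.052 and 2.24 and non-liver means of 2.40, 3.19, 3.99, 3.68 and 4.24, without overlap. Its difference was -2.38 ± 0.44 (limma adjusted p 0.00696). Groups of embryo means without overlap and with the liver below were found for 2.29% of all genes. *Cd68* was at 0.42, 0.87, 2.02, 0 and 2.72 in the liver and at 2.66, 4.05, 4.56, 4.09 and 4.37 elsewhere, a difference of -2.74 ± 0.47 (limma adjusted p 0.00401), with the highest liver mean just above the lowest non-liver mean. *Lgmn* differed by -3.37 ± 0.66, *Ctss*, a cathepsin of antigen-presenting cells, by -3.10 ± 0.64 and *Aif1*, an actin-binding protein of macrophages, by -3.06 ± 0.59. The other macrophage markers called were *Dab2*, *Trem2*, *Csf1r*, *Maf*, *Fcgr1*, *F13a1* and *Cd14*, which fell by 1.01 to 2.91. *Cd14*, an endotoxin co-receptor, no longer passed with the embryo as a block (limma adjusted p 0.0886).

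Other called genes on this side included secreted and signalling genes. The chemokines *Ccl2*, *Ccl3* and *Ccl9* fell by 1.87, 2.32 and 2.09, and *Ifngr2*, a chain of the interferon gamma receptor, by 2.08. Of the 18 Fc receptor and ITAM genes 4 were lower (median -0.58): *Fcgr1*, the kinase *Lyn*, the phosphatase *Inpp5d* and the adaptor *Lcp2*. With the embryo as a block, which pairs liver and non-liver cells of the same animal, *Lyn*, *Inpp5d* and *Lcp2* no longer passed (limma adjusted p 0.0771, 0.0797 and 0.0797). *Tyrobp* had a difference of -1.84 ± 0.64 that did not pass (limma adjusted p 0.151), and with the block it was -2.05 and passed (adjusted p 0.00766). *Mrc1*, the mannose receptor, did not pass either, at -2.20 ± 0.57 (limma adjusted p 0.0505), and with the block it was -2.52 and passed (adjusted p 0.00237).

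Cytoskeletal genes were also lower, 4 of the 18 actin and migration genes among them (*Coro1a*, *Itga6*, *Cotl1* and *Capg*, median -0.61). With the embryo block these 4 no longer passed (limma adjusted p 0.0505 to 0.0797). *Tuba1a*, a tubulin abundant in neurons and migrating cells, had means of 2.91, 1.65, 1.98, 0.47 and 0.68 in the liver and 4.56, 5.02, 4.18, 5.76 and 4.52 elsewhere, a difference of -3.27 ± 0.42 (limma adjusted p 0.000243) without overlap. *Ehd4*, an endocytic recycling protein, had means of 2.16, 2.37, 2.42, 0.50 and 2.23 against 4.53, 4.46, 5.15, 4.76 and 4.75, also without overlap, and differed by -2.79 ± 0.36. *Tpm4*, a tropomyosin, differed by -2.62 ± 0.41, *Dpysl2* by -2.61 ± 0.43 and *Ckb*, brain-type creatine kinase, by -3.01 ± 0.49. Of 4 neural markers, *Nes* was lower in the liver. The summed level of the neural markers ranged from 0 to 0.90 in the liver and from 1.16 to 5.97 elsewhere. That of the 7 mesenchymal markers tested ranged from 0 to 1.20 and from 0.727 to 8.63, with 0 called. The part of neural and mesenchymal RNA in the other results was not tested.

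**Figure D4:**
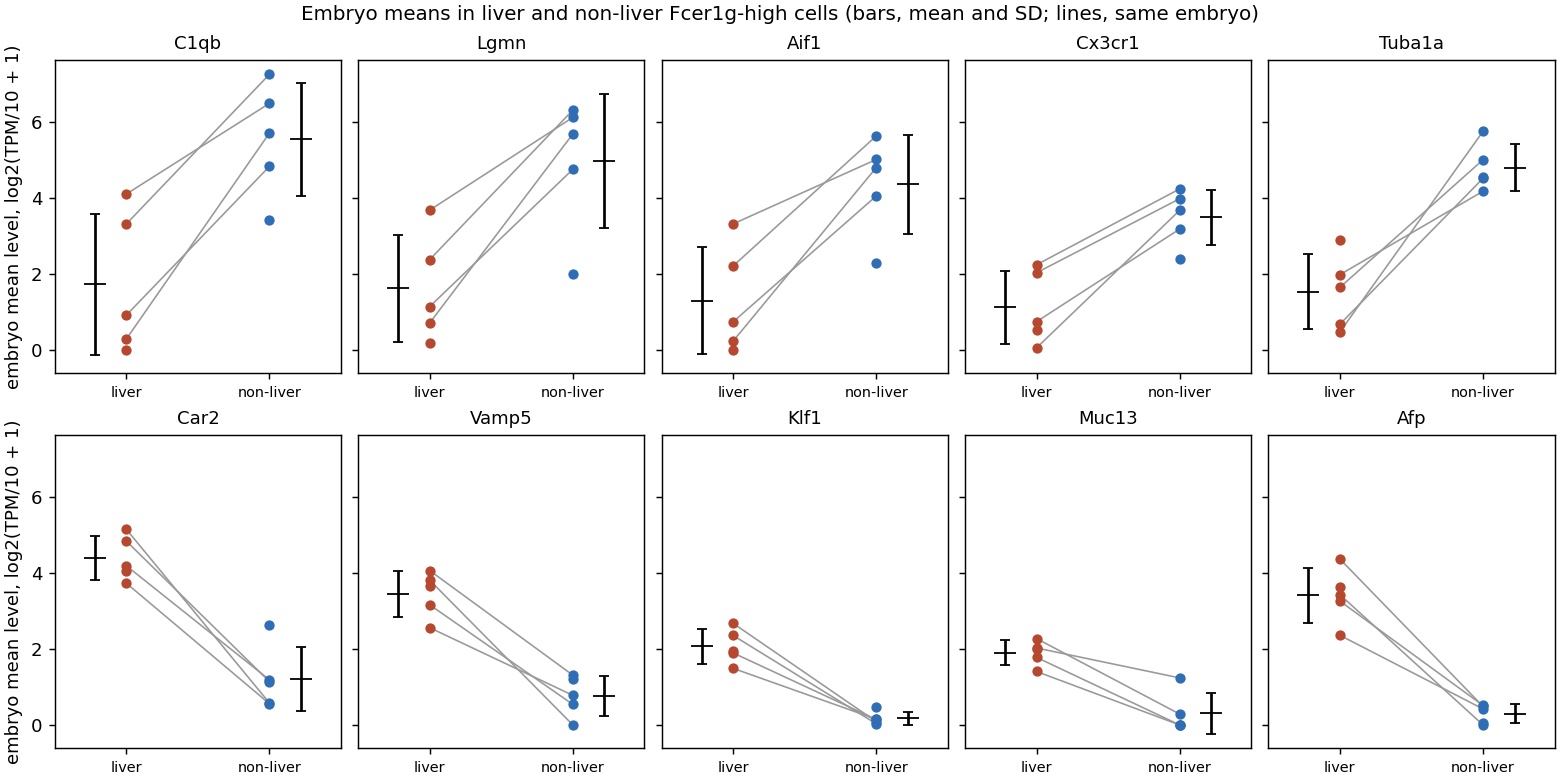
Embryo means of the level, log2(TPM/10 + 1), in liver and non-liver Fcer1g-high cells for 10 genes, with the mean and SD as bars (n = 5 and 5) and lines joining the 4 embryos with both. C1qb, Lgmn, Aif1, Cx3cr1 and Tuba1a are lower in the liver and Car2, Vamp5, Klf1, Muc13 and Afp higher in all 4 joined embryos.

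Of the 43 genes higher in the liver, 10 were on the EMP and stem progenitor, erythroid or hepatoblast lists and 33 on none of them. *Car2* had means of 4.06, 4.85, 3.74, 5.16 and 4.20 in the liver and 2.63, 1.14, 0.56, 0.58 and 1.19 elsewhere, a difference of 3.18 ± 0.40 (limma adjusted p 0.000243) without overlap. *Vamp5*, a vesicle protein, differed by 2.69 ± 0.37, *Ptprcap*, the CD45-associated protein, by 2.63 ± 0.42 and *Klf1* by 1.90 ± 0.31. *Klf1* was the 1 called gene of 13 erythroid genes tested (median 0.28). Of 11 EMP and stem progenitor genes 3 were higher and 0 lower (median 0.88). These were *Adgrg1*, an adhesion receptor of blood stem cells, *Muc13*, a membrane mucin, and *Myb*, the factor of definitive blood formation, which rose by 1.89, 1.60 and 1.46. *Muc13* had liver means of 2.01, 2.28, 1.78, 2.03 and 1.41 and non-liver means of 0, 0.29, 0, 1.24 and 0, without overlap, as 1.72% of all genes were with the liver above.

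Granulocyte and platelet genes did not pass. *Mpo* had liver means of 2.12, 1.89, 1.79, 5.93 and 2.97 and non-liver means of 0, 2.44, 0.68, 0 and 0.64, a difference of 2.19 ± 0.61 (limma adjusted p 0.0669). *Itga2b* had means of 3.48, 3.34, 0.87, 2.50 and 1.72 in the liver and 4.22, 1.16, 0.35, 2.77 and 0.63 elsewhere, a difference of 0.55 ± 0.60 (limma adjusted p 0.701) whose sign turned in edgeR and DESeq2. Of the 19 megakaryocyte markers and the 12 granulocyte and monocyte progenitor genes, 0 were called in limma, with medians of -0.20 and 0.13. The lists of mast cell, neutrophil, lymphoid, endothelial, mesenchymal, epithelial, antigen presentation and heme and iron genes, with 2 to 12 genes tested each, also held 0 called genes. Of 28 myeloid transcription factors 2 were called (*Myb* and *Maf*), and of 15 dissociation stress genes 1 (*Hsp90aa1*, higher by 1.05, with an adjusted p of 0.0512 with the embryo block in limma).

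Hepatoblast genes moved with the same comparison. *Afp*, the fetal serum protein of hepatoblasts, had means of 3.63, 2.36, 3.44, 3.27 and 4.38 in the liver and 0.055, 0.42, 0, 0.51 and 0.49 elsewhere, a difference of 3.12 ± 0.36 (limma adjusted p 0.000138). *Afp* reached 1 in 41 of 42 liver members and in 3 of 29 others, and in 136 of the 175 other hematopoietic cells. Of 10 hepatoblast genes tested 6 were higher (*Afp*, *Alb*, *Apoa1*, *Apoa2*, *Ttr* and *Rbp4*, of which *Ttr* had a limma adjusted p of 0.0528 with the embryo block), and their factor *Hnf4a* reached 1 in fewer than 3 members. *Alb* reached 1 in 16 of 42 liver members and in no member of another organ. It passed the gene filter through liver cells only, so that its direction is no support. *Ttr* had non-liver means of 0.20, 0, 0, 0 and 0. The summed level of the list was 9.25 to 24.6 in the liver means and 1.82 to 4.06 in the others. The liver cell highest in these genes, a *Csf1r* cell of E11.5 embryo 2 with *Afp* at 9.52 and *Alb* at 7.15, had a list mean of 6.15, and without it 212 genes were called, 55 higher and 157 lower. The part of hepatoblast RNA in the other results was not tested.

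The count of called genes depended on single embryos. It was 6 without E10.5 embryo 1, 60 without E10.5 embryo 2, 52 without E11.5 embryo 1, 86 without E11.5 embryo 2, 58 without E9.5 embryo 3 and 354 without E9.5 embryo 2, the only female and the only embryo with members whose labels name the other HiSeq model. *Afp*, *Car2*, *Ehd4*, *Tpm4*, *Tuba1a* and *Vamp5* were called in all 6 of these fits. None of the called macrophage markers was among them. *Cd68* was called in 5 of the 6 fits, *C1qb*, *Cx3cr1*, *Aif1* and *Dab2* in 4, and the other called macrophage markers in 2 or 3. With edgeR on summed UMIs, 25 genes were called, 14 higher and 11 lower, of which 18 were among the 167.

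The 38 *Csf1r* cells alone were compared in the same way. Liver and non-liver means of at least 3 cells were available from E10.5 embryos 1 and 2 and E11.5 embryo 2, given in that order. Of 10117 genes limma called 2, 1 higher and 1 lower (0.00988% each, 0.0198% together), and 698 had an unadjusted p under 0.05. *Afp* had means of 2.99, 4.30 and 4.73 in the liver and 0.47, 0 and 0.55 elsewhere, a difference of 3.67 ± 0.50 (SE, n = 3 and 3; limma adjusted p 0.00446). *Vim*, the intermediate filament of mesenchymal and migrating cells, had means of 3.46, 3.49 and 3.83 against 5.38, 5.83 and 5.32, a difference of -1.92 ± 0.32 (limma adjusted p 0.0368). Of the 8 mesenchymal markers 7 were tested, and all 7 had lower liver means without overlap (median -0.78), though 0 were called. Their summed level was 0 to 0.298 in the liver, where *Col1a1*, *Col1a2*, *Twist1* and *Prrx1* were at 0 in all 3 means, and 2.60 to 9.03 elsewhere. These 4 genes passed the filter of 1 or more in 3 cells without any cell of the 3 liver means. They could not come out higher in the liver, so that their direction is no support. *Sparc*, a matrix protein of mesenchymal cells and macrophages, had means of 0.083, 0.68 and 0 against 2.28, 3.69 and 2.49 (limma adjusted p 0.143). The part of mesenchymal RNA in the *Vim* difference was not tested. Neither *Afp* nor *Vim* overlapped between the groups, nor did 3.26% of all genes with the liver above and 9.34% with the liver below. Leaving out any of the 3 embryos (E10.5 embryo 1, E10.5 embryo 2 or E11.5 embryo 2) left 0 called.

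Of the 22 macrophage markers tested in *Csf1r* cells 0 were called, with a median difference of -0.67. The median over all members, from 5 and 5 means, was -2.20 over 23 markers, and no test compared the 2 values. The cells without *C1qb* were 6 of the 14 liver and 1 of the 24 non-liver *Csf1r* cells, so that the mix differed here too. *C1qb* had means of 3.45, 5.48 and 7.20 in the liver and 5.45, 7.27 and 7.80 elsewhere, lower in the liver in 3 of 3 embryos, with a difference of -1.46 ± 0.61 (limma adjusted p 0.677). *Tuba1a* differed by -2.75 ± 0.51 (limma adjusted p 0.0856). With the embryo as a block 32 genes were called, 9 higher and 23 lower. Among the lower were *Tuba1a*, *Sparc*, *C1qb*, *C1qc*, *Mrc1*, *Lgmn*, *Dab2* and *Ccl3*, and among the higher *Afp*, *Alb*, *Rbp4* and *Car2*. *Alb* and *Rbp4* were at 0 in all 3 non-liver means. These 2 genes could not come out lower in the liver, so that their direction is no support.

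*Csf1r* cells of different organs carried different macrophage genes. These values describe few cells, which share embryos and libraries, and were not tested. All 9 skin cells, from 5 embryos, had *Mrc1* at 3.75 to 8.41, *F13a1*, a coagulation factor chain of macrophages, at 2.17 to 7.21 and *Pf4* at 1.97 to 10.13. *Lyve1*, the hyaluronan receptor, reached 1 in 5 of the 9, up to 9.81. *Mrc1* was 0 in all 3 hindbrain cells and reached 1 in 3 of 6 forebrain, 2 of 4 heart and 6 of 14 liver cells and in the lung and somite cells. Across the 38 cells *Pf4* and *Mrc1* had a Pearson r of 0.81. *F13a1* was 0 in all 3 hindbrain cells as well. It reached 1 in 5 of 6 forebrain, 2 of 4 heart and 6 of 14 liver cells and in the lung and somite cells. *Pf4* reached 1 in 11 of 14 liver, 2 of 4 heart and 1 of 3 hindbrain cells and in the lung cell. In the 6 forebrain cells and the somite cell it stayed under 1.

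*P2ry12*, a purinergic receptor of microglia, reached 1 in 2 of 3 hindbrain and 5 of 6 forebrain cells, but also in 7 of 9 skin cells. It did so too in 3 of 4 heart and 6 of 14 liver cells and in the lung and somite cells. A hindbrain cell of E11.5 embryo 1 had *P2ry12* at 7.70 and *Sall1*, a microglial factor, at 2.55, the only *Csf1r* cell with *Sall1* at 1 or more. *Timd4*, a phosphatidylserine receptor of resident macrophages, reached 1 in 5 of 14 liver cells, 2 of 9 skin cells and the lung cell, and in 0 of the forebrain, hindbrain, heart and somite cells.

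**Figure D5:**
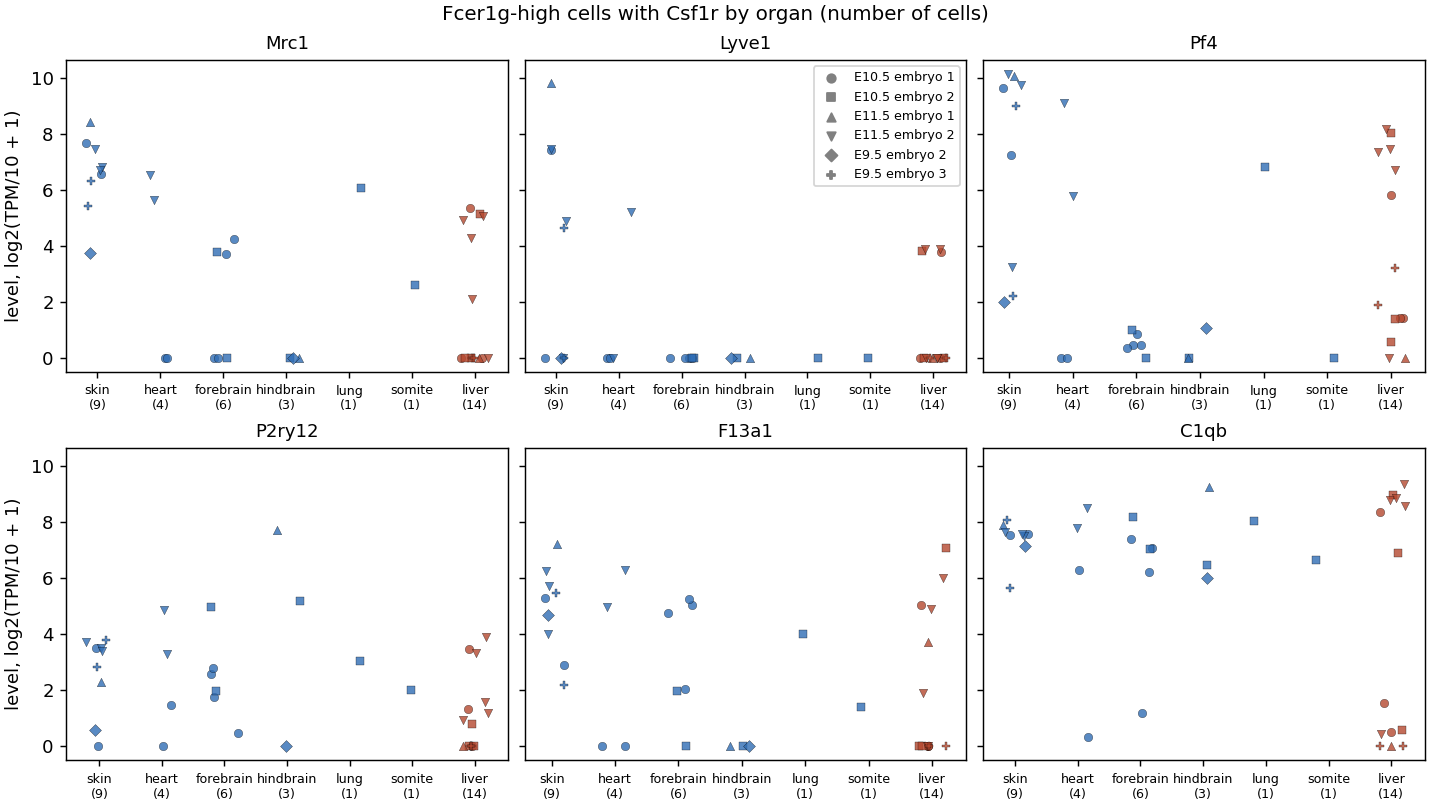
Level per cell, log2(TPM/10 + 1), of Mrc1, Lyve1, Pf4, P2ry12, F13a1 and C1qb in the 38 Csf1r cells by organ, with the number of cells in brackets and symbols for embryos. All 9 skin cells have Mrc1 at 3.75 or more and the 3 hindbrain cells have 0, and C1qb is at 1 or more in 8 of 14 liver cells and in 23 of 24 others.

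Globin levels also differed by organ. The median *Hba-x* level was 6.71 in the 7 forebrain members and 6.82 in the 5 of the hindbrain, against 3.91 in the liver and 0.41 in the skin. Over embryo means, *Hba-x* differed by -0.62 ± 0.48 between liver and non-liver members (limma adjusted p 0.563).

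Change over embryonic day was fitted within each compartment. In liver members 0 of 11231 genes were called at a slope of at least 0.5 per day (limma), and 453 had an unadjusted p under 0.05. In non-liver members 4 genes rose and 4 fell (0.0356% each). *Apoe*, the lipid carrier of macrophages, rose by 2.08 ± 0.33 per day (limma adjusted p 0.0219), with non-liver means of 3.82 at E9.5, 6.36 and 4.96 at E10.5 and 7.62 and 8.23 at E11.5. The other 3 that rose were *Lyve1* (1.71), *Gas6*, a ligand for uptake of dying cells (1.60), and *Npl*, a sialic acid lyase (1.56). The 4 that fell were *Srm*, spermidine synthase (-2.19), *Slc16a3*, a lactate exporter (-1.85), and the cholesterol synthesis enzymes *Sqle* (-1.84) and *Msmo1* (-1.76). The organs behind the non-liver means differed between embryos. Skin gave 1 of 4 members in E9.5 embryo 2 and 2 of 9 in E10.5 embryo 1. It gave none in E10.5 embryo 2, 1 of 3 in E11.5 embryo 1 and 3 of 6 in E11.5 embryo 2. Among *Csf1r* cells outside the liver, *Lyve1* reached 1 in 5 of 9 skin cells, 1 of 4 heart cells and no other. Day and organ mix cannot be told apart in these slopes.

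E9.5 was represented outside the liver by a single embryo, E9.5 embryo 2. This is the only female and the only embryo with members whose labels name the other HiSeq model. It gave 4 members, 3 of the hindbrain and 1 of the skin, and 2 of the 4 were *Itga2b* cells. In the non-liver slopes E9.5 cannot be told apart from sex, HiSeq label, organ or kind of cell. Without E11.5 embryo 1 the non-liver count was 157, and without each other embryo it was 0 to 3. These were 0 without E10.5 embryo 1, 2 without E10.5 embryo 2, 2 without E11.5 embryo 2 and 3 without E9.5 embryo 2. *Apoe* also had a positive slope in the liver, 1.62 ± 0.33 per day (limma adjusted p 0.457). The difference between the slopes of the 2 compartments was called for 0 genes, with 540 at an unadjusted p under 0.05.

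Cell cycle scores, the mean level of 43 G1/S genes and of 54 G2/M genes, were compared over the same embryo means. The G1/S score was 2.90 ± 0.26 (SD, n = 5) in the liver and 2.39 ± 0.54 (n = 5) elsewhere, a difference of 0.50 (exact permutation test, two-sided p 0.0873, adjusted 0.175). The G2/M score was 2.85 ± 0.27 and 2.58 ± 0.61, a difference of 0.27 (exact p 0.437, adjusted 0.437). Neither difference passed, in a design whose smallest exact p is 0.00794. In *Csf1r* cells alone both differences turned, to -0.034 and -0.53. Both scores were under 2 in 8 of 71 cells, 4 of the *Csf1r*, 0 of the *Mpo* and 4 of the *Itga2b* kind.

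Single cells stood at the edges of these kinds. A heart cell of E10.5 embryo 1 had *Mpo* at 8.998 and, among neutrophil granule genes, *S100a8* at 9.69, *S100a9* at 9.37, *Camp* at 7.01 and *Ngp* at 5.44, and it counted as a *Csf1r* cell at a *Csf1r* level of 1.56. A liver cell of E11.5 embryo 1 had *S100a8* at 10.86 and *S100a9* at 10.01. In the rest of the 71 cells the mean of the neutrophil list was at most 0.34. The shallowest member, a liver cell of E11.5 embryo 1 with 24561 UMIs, had *Csf1r* at 5.07, *Mpo* at 7.28 and *Gata2* at 6.22. All were kept in every count above.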

How the data were processed

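Single cells were picked by mouth pipette into tubes, and their cDNA was amplified by a modified STRT protocol with cell barcodes and UMIs. Per the labels and the submitters' processing notes, the authors aligned reads to mm10 with TopHat2 (2.0.12) and counted them with HTSeq, whose version and annotation are not given in the sources used here. They deposited TPM values, a CPM scale in which each cell's UMIs sum to 1000000 and gene length is not corrected for, in 32 libraries with 1916 cells and 23154 genes. Every value came out as a whole number of UMIs (100% within 0.05 UMI). The 14 columns that repeat another column of the same library were counted once, none of them a member. No doublet caller was run, since cells were picked singly.

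Major groups were taken from the authors' annotation, which placed 1815 cells. The members and gene lists were chosen with earlier results of these data known, and so were the 3 kinds of cells. Levels were log2(TPM/10 + 1). Means per embryo and compartment of at least 3 cells were compared with limma (3.58.1; R 4.3.3) with a trended prior over genes at 1 or more in at least 3 of the cells, *Fcer1g* left out (and *Csf1r* in the comparison of *Csf1r* cells), with Benjamini-Hochberg adjustment. Calls needed an adjusted p under 0.05 and a difference of at least 1, or a slope of at least 0.5 per day. Genes were named from 26 fixed lists, as the 15 largest called differences in each direction that went the same way in every embryo with both compartments, and as the 5 largest called slopes. Against other hematopoietic cells the 15 largest differences were eligible. Promoters were read from RefSeq (GRCm38.p6), where all 5 genes looked up were matched. The fits were tested on simulated data with independent normal noise. Only genes of higher mean level were given a difference, so that the recovery does not cover genes of low level. At a simulated log2 difference of 1.5, 57 of 100 changed genes were called over all members and 35 of 100 in *Csf1r* cells. At a difference of 3 these were 94 and 76 of 100. False calls were 0 of 11031 and 4 of 9917 unchanged genes. A gene not called, above all in *Csf1r* cells, can therefore still differ.

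The embryo labels pair the liver and non-liver cells of 4 animals. Their deviations from the compartment means correlated across genes with r of -0.00031, 0.186, 0.032 and 0.169, and for *Csf1r* cells with 0.025, 0.056 and 0.220 in 3 animals. Alternatives were another pseudocount, no gene filter, 2 or 5 cells per mean, *Fcer1g* thresholds of 2 and 4, thinning to 20000 UMIs, embryo as a block, embryonic day as a covariate, labelled HiSeq model, organs, each embryo left out, and edgeR (4.0.16) and DESeq2 (1.42.0) on UMIs summed per embryo and compartment. Some items are not reported here.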

Additional observations from a re-analysis of the deposited data

Results flagged for a closer look

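Embryo means of the genes named above were searched for a single embryo far from the other 4 of its compartment, by Dixon's ratio. Of 138 groups of 5 means 11 stood out so. Chance alone flags about 1 in 20 groups only where groups are independent and normally spread. These groups share embryos, and for non-liver *Alb* and *Ttr* the other 4 means were 0, which gives a ratio of 1. The 11 can therefore not be set against that rate. In non-liver cells E9.5 embryo 2 was the highest for *Bex4* (1.79), *Klf1* (0.462), *Ttr* (0.202) and *Alb* (0.0142) and the lowest for *Cd68* (2.66) and *Ctsb* (3.39). E11.5 embryo 1 was the highest of the non-liver means for *Muc13* (1.24), and in liver cells it was the lowest for *Ehd4* (0.501) and *Inpp5d* (0.480). In liver cells E10.5 embryo 2 was the highest for *Gpr34* (1.03) and E11.5 embryo 2 for *Ttr* (2.26). E9.5 embryo 2 gave 4 members, 2 of them *Csf1r* cells.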

How the results depend on the processing

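The 167 genes called between liver and non-liver members, from 5 and 5 means, became 11 with no gene filter. They became 66 at an *Fcer1g* threshold of 4, 107 after thinning and 270 with embryonic day as a covariate. With at least 5 cells per mean the count was 417, from 5 liver and 3 non-liver means. It was 356 with only the embryos labelled with the more used HiSeq model, from 5 and 4 means. Without forebrain and hindbrain it was 448, from 5 and 2 means. The count was 25 in edgeR, 372 in DESeq2 (where the median of all genes was -0.10) and 6 to 354 with each embryo left out. Counts from unlike numbers of means cannot be set directly against each other. The 11 and the 66 all lay within the 167, as did 162 of the 356, 113 of the 448, 104 of the 372 and 18 of the 25. Of the 67 called genes named here, 65 stayed called under log2(TPM + 1), 55 with the replicate block (194 called in all), 9 in edgeR and 6 with no gene filter, and 0 changed sign in any of these. *Itga2b*, not called, turned to -1.09 in edgeR and -1.30 in DESeq2. Among *Csf1r* cells the 2 calls, from 3 and 3 means, became 1 under log2(TPM + 1) and with 2 cells per mean. They became 0 with no gene filter, after thinning, in edgeR (615 at an unadjusted p under 0.05) and with each embryo left out (0 to 0). Without forebrain and hindbrain they also became 0, from 3 liver and 2 non-liver means. The count was 4 with the day covariate, 64 in DESeq2 and 32 with the replicate block. At least 5 cells per mean left 1 liver mean, too few for a count. Over all members the block ended the calls of 12 named genes (*Gpr34* and *Hexa* at adjusted p 0.0543 and 0.0593, the others given above) and added *Tyrobp* and *Mrc1*. The block changed no other call of a gene named here over all members. The slope count in the liver was 1 after thinning and 0 to 1 with each embryo left out. In non-liver members 8 became 5 under log2(TPM + 1), 0 with no gene filter, 2 with 2 cells per mean, 4 at a threshold of 4 and 0 to 157 with each embryo left out. Cell cycle differences were -0.034 and -0.530 in *Csf1r* cells. The cause of these changes was not tested. Means rested on as few as 3 cells, and a gene of low level can go undetected in a cell of 24561 UMIs, the shallowest member.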
